A study of Mus musculus with 12 samples.

Results

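The mitochondrial genome is a small circular DNA present in many copies per cell. Its 37 rows in the deposited count table, of 56748 rows in all, are described here. They are every row that the table places on the chromosome MT. They comprise 13 mRNA rows, 2 ribosomal RNA rows and 22 transfer RNA rows. Liver RNA was captured on poly-T beads from 4 groups of 16-week-old mice, co-housed on normal chow, with 3 biological replicates a group. Female KO and male KO mice were of the line 129/Sv-Cyp2e1tm1Gonz/J, in which Cyp2e1, a cytochrome P450 enzyme of ethanol and drug oxidation, is disrupted by a targeted allele. Female WT and male WT mice were of the line 129S1/SvImJ. KO and WT are separate lines, so each comparison of genotypes is also one of lines, and the labels name no litter shared between them.

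Both strands of mitochondrial DNA are transcribed by the polymerase Polrmt into long precursors. These are cut largely at the transfer RNAs that lie between the other genes. The mRNAs encode core subunits of 4 membrane complexes: mt-Nd1 to mt-Nd6 and mt-Nd4l of complex I (NADH dehydrogenase), mt-Cytb of complex III, mt-Co1 to mt-Co3 of complex IV (cytochrome c oxidase) and mt-Atp6 and mt-Atp8 of complex V (ATP synthase). All other subunits are made from nuclear genes. Most mitochondrial mRNAs carry short poly(A) tails, so poly-T beads capture those, while transfer RNAs and ribosomal RNAs are recovered only in part. A level in these libraries is therefore that of captured RNA, and in bulk tissue fewer cells of a type and less RNA per cell cannot be told apart.

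Library totals ran from 15167730 to 25082532 counts. Cyp2e1 was lower in every KO library, at 5176 to 7565 counts, than in every WT library, at 99554 to 221508 counts. All 7 hepatocyte markers were detected in each group. Muscle markers stood apart in 1 library, female KO replicate 2. It had 903 counts of Acta1, skeletal muscle actin, and 134 of Ckm, muscle creatine kinase, and the other 11 libraries had 0 of both. Libraries also differed in the slope of level on gene length, in log2 units per doubling of length over 9346 genes. That slope was 0.09 to 0.29 in female KO, -0.23 to -0.15 in female WT, -0.17 to 0.17 in male KO and -0.16 to 0.11 in male WT libraries. Fold changes below are on the log2 scale with a standard error (SE), from a quasi-likelihood model in edgeR that spans the 12 libraries. A row counts as called where its p, adjusted over the 14003 genes tested, is under 0.05. Of the 37 rows, 25 were tested (13 mRNA, 2 ribosomal RNA and 10 transfer RNA rows), and 12 transfer RNA rows had too few counts.

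Several mitochondrial genes have near-identical copies in nuclear DNA, which limits how reads can be assigned. On chromosome 1, the 7 pseudogene rows that match mt-Co1, mt-Co2, mt-Atp6, mt-Co3, mt-Nd3, mt-Nd4l and mt-Nd4 lie in mitochondrial order on the minus strand within chr1:24650616-24655278 (mm39, 4663 bases). For the 5 rows that match mt-Co2, mt-Co3, mt-Nd3, mt-Nd4l and mt-Nd4, the distance from the mt-Atp6 copy equals the mitochondrial distance to within 1 base. The start of mt-Co2, its chromosome 1 copy Gm28661 and its chromosome 2 copy Gm13341 are shown because they span that range of likeness. Capitals mark the bases at which the chromosome 2 copy differs from the other sequences (C25T and G57A, counted from 1 at the first base of mt-Co2).
mt-Co2: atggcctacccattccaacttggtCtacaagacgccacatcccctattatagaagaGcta
Gm28661: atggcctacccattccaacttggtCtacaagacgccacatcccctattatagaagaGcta
Gm13341: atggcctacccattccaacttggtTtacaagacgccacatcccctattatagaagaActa
The chromosome 1 copy had no mismatch to mt-Co2 over 681 aligned bases, while the chromosome 2 copy had 95.91% identity. Sequences here are from the GENCODE M21 transcripts of the GRCm38 assembly, in which all 37 rows were found by identifier at the deposited length. They are reference sequences, and the mice studied may differ from them.

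The mt-Nd3 copy, Gm28438, differed from mt-Nd3 at 1 base over 345 aligned bases (T3C, in the first codon). The next pair shows that base in capitals.
mt-Nd3: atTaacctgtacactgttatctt
Gm28438: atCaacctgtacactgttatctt
Away from that base, a read from either place carries the same letters. By contrast, the chromosome 2 copy of mt-Co1, Gm13340, runs the whole length of the gene, 1545 bases, with 37 mismatches. A stretch from position 460 to 519 holds 4 of them, in capitals (A462G, A468G, T501C and C519T, counted from the first base of mt-Co1).
mt-Co1: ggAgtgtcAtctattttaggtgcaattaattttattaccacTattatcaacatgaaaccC
Gm13340: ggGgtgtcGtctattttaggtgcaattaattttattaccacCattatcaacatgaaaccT

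Neighbouring genes also share bases. The last 43 bases of mt-Atp8 are the first 43 of mt-Atp6 (MT 7927 to 7969), read in another frame, and stand in capitals.
mt-Atp8 end: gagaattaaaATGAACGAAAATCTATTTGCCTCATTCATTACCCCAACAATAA
mt-Atp6 start: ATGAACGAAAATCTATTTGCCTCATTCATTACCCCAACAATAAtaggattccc
mt-Nd4l and mt-Nd4 overlap by 7 bases, and mt-Nd5 and mt-Nd6 by 14 on opposite strands. The annotated ends of mt-Co3, mt-Nd4 and mt-Cytb leave a single T after the last full codon, shown in capitals, and such stops are completed by the poly(A) tail that the capture uses.
mt-Co3 end: gtctccatttattgatgaggatctT
mt-Nd4 end: aaactaattacaggcctgacaataT
mt-Cytb end: gacaaaatactaaaattatatccaT

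The share of a library taken by mitochondrial rows varied more within the female groups than between genotypes. It was 6.34%, 3.95% and 3.50% of all counts in female KO libraries and 2.47%, 3.16% and 7.31% in female WT libraries. The means were 4.59 ± 1.53% in female KO and 4.31 ± 2.62% in female WT (SD, n = 3 each). The female groups overlapped, and the highest and the lowest of the 6 female values were both WT. In males it was 3.73%, 4.13% and 4.40% in KO and 3.67%, 3.05% and 2.23% in WT libraries. The means were 4.09 ± 0.34% in male KO and 2.99 ± 0.72% in male WT (SD, n = 3 each), and all 3 male KO values stood above all 3 male WT values. The nearest of them, KO replicate 1 and WT replicate 1, were almost level. Female WT replicate 3 had the highest level of 21 of the 25 rows tested and of 12 of the 13 mRNAs. Without it, the female WT mean would lie below every female KO value.

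**Figure D1:**
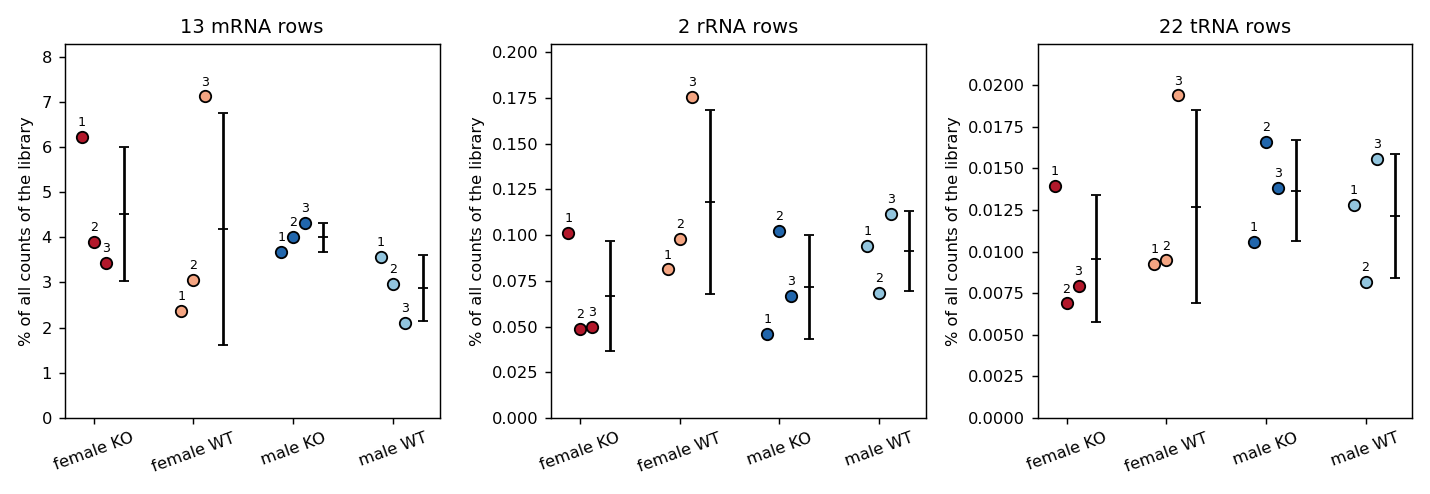
Share of all counts of a library, in percent, for the 13 mRNA, 2 ribosomal RNA and 22 transfer RNA rows in each of 12 libraries (points, numbered by replicate), with the mean and SD of each group as bars. Female WT replicate 3 is the highest female library in all 3 panels, and the female KO and WT points overlap in each.

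The mRNA rows held 94.3% to 98.6% of mitochondrial counts in every library. Within them, mt-Co1, the catalytic subunit of cytochrome c oxidase, took 44.4% to 51.8%. It was joined by mt-Cytb, the cytochrome b of complex III, and by mt-Nd1, mt-Nd2, mt-Nd4 and mt-Nd5 of complex I. These 6 rows together made up 96.2% to 97.6% of mitochondrial mRNA counts in each library. The share of mt-Co1 among mitochondrial mRNA counts varied 1.17-fold over the libraries and that of mt-Nd5 1.95-fold, against 3.27-fold for the mitochondrial share of all counts. Rows of low count varied more, up to 7.37-fold for mt-Atp8 and 15.6-fold for mt-Nd4l.

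Levels per length, in CPM (counts scaled to library size) per kb without TMM factors, differed widely among the mRNAs. Over the 12 libraries mt-Co1 averaged 11934 CPM per kb, mt-Cytb 5419, mt-Nd1 4091, mt-Nd2 3292 and mt-Nd4 2277. mt-Nd6, the one mRNA on the minus strand, averaged 1661 CPM per kb and mt-Nd5, its neighbour on the plus strand, 1463. The strand setting of the counting is not given, so reads of mt-Nd6 and of the precursor on the other strand cannot be told apart. The ribosomal RNAs, which form the mitochondrial ribosome, were lower, at 345 CPM per kb for mt-Rnr1 (the small subunit) and 341 for mt-Rnr2 (the large subunit). mt-Co2, mt-Atp6 and mt-Co3 averaged 155, 146 and 131 CPM per kb, or 1.21%, 1.16% and 1.10% of mt-Co1. mt-Nd4l, mt-Nd3 and mt-Atp8 were lowest, at 49.9, 14.2 and 3.23 CPM per kb. Ranges over libraries overlapped for mt-Rnr1 and mt-Rnr2, and likewise among mt-Co2, mt-Atp6 and mt-Co3. Such ranges do not compare rows within a library, and the order of these neighbours was not tested. Per kb, mt-Rnr2 was 0.89 to 0.90 times mt-Rnr1 in female KO and 1.01 to 1.08 times in female WT libraries. It was 0.81 to 1.07 times mt-Rnr1 in male KO and 0.88 to 1.09 times in male WT libraries.

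The low mRNAs lie side by side on the genome, and most of them are the ones with a chromosome 1 copy. The share of 100-base windows found unchanged in an annotated nuclear transcript was 99.5% for mt-Co2, 99.5% for mt-Atp6, 99.9% for mt-Co3, 97.6% for mt-Nd3 and 98.5% for mt-Nd4l. It was 60.8% for mt-Nd4, 30.8% for mt-Co1 and 3.2% for mt-Nd2, all among the high rows. No such window was found for mt-Nd1, mt-Nd5, mt-Nd6, mt-Cytb, mt-Rnr1 or mt-Rnr2. mt-Atp8 also had none, although it was the lowest. The chromosome 1 copies of mt-Co2 and mt-Atp6 are 233 bases apart, against 230 bases between the genes on the mitochondrial genome. That gap overlaps no row of the table, and its sequence was not compared with mt-Atp8. How reads that match more than one place, or more than one gene, were counted is not stated, and its part in these levels was not tested.

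**Figure D2:**
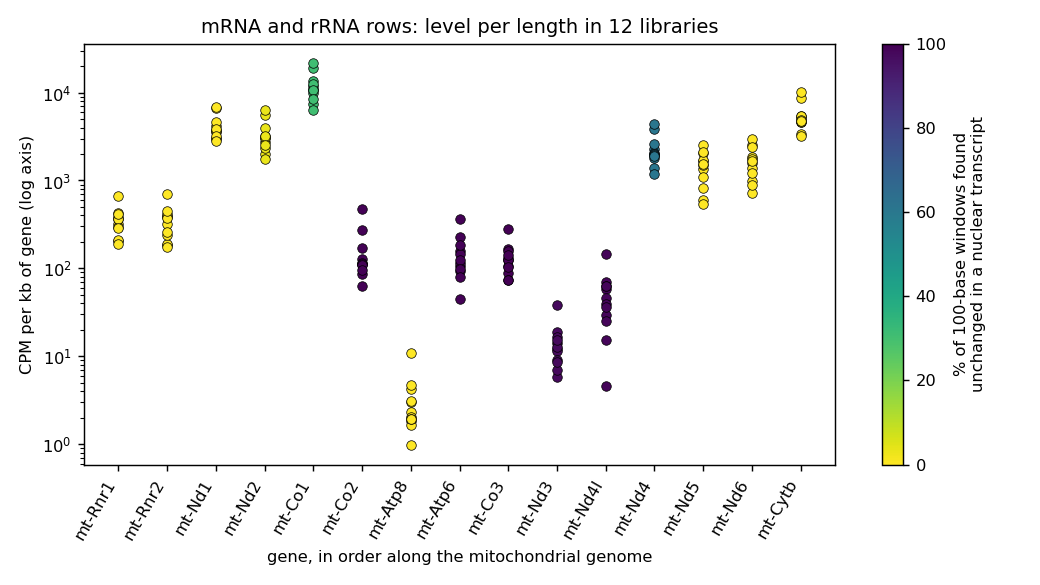
Level per length (CPM per kb, log axis) of the 13 mRNA and 2 ribosomal RNA rows in 12 libraries (points), in order along the mitochondrial genome, coloured by the percent of 100-base windows found unchanged in a nuclear transcript. mt-Co2, mt-Atp6, mt-Co3, mt-Nd3 and mt-Nd4l, with 97.6% or more, stand below mt-Nd1, mt-Cytb and mt-Co1 in every library, and mt-Atp8, with 0, is the lowest row.

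The copies themselves carried counts. Of the counts assigned to mt-Nd3 or Gm28438, 80.9% were at the copy. The share at the chromosome 1 copy was 47.6% for mt-Atp6, 42.7% for mt-Co3, 42.5% for mt-Nd4l, 35.3% for mt-Co2 and 0.91% for mt-Nd4. Adding copy and gene together left mt-Co2, mt-Atp6 and mt-Co3 at 1.90%, 2.23% and 1.91% of mt-Co1 per kb. These values treat the rows as deposited and cannot tell transcripts of the copies from reads of the mitochondrial genes. None of the 10 copy rows was called by edgeR or DESeq2 in any comparison. In edgeR, 5 had an unadjusted p under 0.05 in male against female WT, beside 3076 of all 14003 genes, and 0 elsewhere. For KO against WT, edgeR called 36.5% and DESeq2 42.3% of all genes in females, 0.0571% and 0.253% in males, and 15.1% and 28.3% averaged over both sexes. For male against female the shares were 5.4% and 9.97% in KO and 4.49% and 8.76% in WT. For the difference of KO effects edgeR called 0%, and DESeq2 17.5% of 1244 genes.

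The transfer RNA rows held few counts, 27317 over all libraries, and 77.9% of these were mt-Tp, the proline transfer RNA beside the control region. The 8 transfer RNAs on the minus strand had 24965 counts and the 14 on the plus strand had 2352. Next by level per length came mt-Te (glutamate) at 94.9 CPM per kb, mt-Tl2 (leucine) at 77.7 and mt-Tc (cysteine) at 70.7, against 1398 CPM per kb for mt-Tp. mt-Tp and mt-Te, which lie on either side of mt-Cytb on the minus strand, are printed as the transfer RNAs of highest level.
mt-Tp: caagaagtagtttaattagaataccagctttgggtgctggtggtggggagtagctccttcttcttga
mt-Te: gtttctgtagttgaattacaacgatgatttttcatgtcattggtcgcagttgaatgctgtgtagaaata
mt-Tf, mt-Td and mt-Tt had 0 counts in all libraries, which allows up to 0.013 CPM over the 12 libraries together (3 counts, counting error only). A further 5 rows had between 1 and 10 counts in all. The strand setting of the counting is not given, so reads from a transfer RNA and from the precursor on the other strand cannot be told apart.

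**Figure D3:**
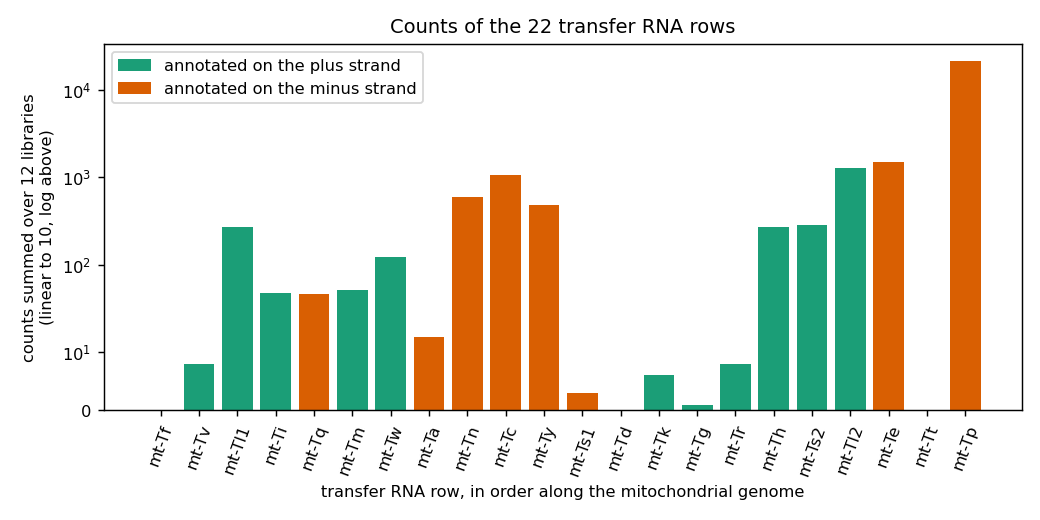
Counts summed over 12 libraries for each of the 22 transfer RNA rows, in order along the mitochondrial genome (axis linear to 10, log above), coloured by annotated strand. mt-Tp, on the minus strand, reaches 21269 of the 27317 counts.

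The female comparison asked which transcripts differ between female KO and female WT livers. Of the 25 mitochondrial rows, 1 was called, mt-Atp8, which was lower in KO, beside 36.5% of all 14003 genes called and 18.8% called lower. mt-Atp8, an assembly and stator subunit of ATP synthase, had 13, 7 and 12 counts in female KO libraries and 19, 16 and 38 in female WT libraries. That is 0.578, 0.324 and 0.440 CPM in female KO, against 0.897, 1.02 and 2.44 CPM in female WT. The groups did not overlap, but the counts were low, and the highest WT value again came from replicate 3. The fold change was -1.67 ± 0.49 (SE, edgeR adjusted p = 0.0211). The call was lost without female KO replicate 2 or 3, beside 0.028% and 20.3% of all genes called, and without female WT replicate 2 or 3, beside 0.0347% and 20.3%. It was also lost when the length slopes entered the model (-1.91 ± 0.92, edgeR adjusted p = 0.547), where 0 rows were called beside 0.0786% of all genes. mt-Atp8 was the one row of 25 whose female groups were apart, beside 54.8% of all genes tested.

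The abundant mRNAs overlapped between female KO and WT. mt-Co1 had 27516, 16057 and 15348 CPM in female KO and 11931, 16050 and 36454 CPM in female WT libraries. One library in each group, KO replicate 1 and WT replicate 3, stood well above the others. Its fold change was -0.13 ± 0.37 (edgeR adjusted p = 0.797). mt-Cytb had 9386, 5343 and 4922 CPM in female KO and 3975, 5558 and 12703 CPM in female WT, with a fold change of -0.18 ± 0.36. The same 2 libraries were highest. mt-Nd1, mt-Nd2, mt-Nd4, mt-Nd5 and mt-Nd6, all of complex I, had fold changes between -0.13 and 0.10. mt-Co2, mt-Atp6 and mt-Co3 were at -0.60 ± 0.54, -0.46 ± 0.46 and -0.35 ± 0.34, and none of them was called. The median fold change of the 25 rows was -0.26, against 0.05 over all genes tested, and it was 0.46 without female WT replicate 3.

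The ribosomal RNAs were the rows nearest the threshold after mt-Atp8. mt-Rnr2 had 570, 251 and 273 CPM in female KO and 526, 665 and 1220 CPM in female WT, a fold change of -1.14 ± 0.43 (edgeR adjusted p = 0.0536). mt-Rnr1 had 383, 169 and 186 CPM in female KO and 316, 372 and 697 CPM in female WT, a fold change of -0.91 ± 0.39 (edgeR adjusted p = 0.079). In both rows KO replicate 1 lay within the WT range and the other 2 KO libraries lay below it. mt-Nd3, a small subunit of complex I, had a fold change of -1.18 ± 0.53 (edgeR adjusted p = 0.0939). DESeq2 called mt-Rnr2 (adjusted p = 0.0246), mt-Rnr1 (adjusted p = 0.0493) and mt-Atp8 (adjusted p = 0.00798), beside 42.3% of all genes. With the length slope in the edgeR model, the fold changes of mt-Rnr2 and mt-Rnr1 turned to 0.28 and 0.15. In that fit 0 of the 25 rows had an unadjusted p under 0.05 in females. The slopes of female KO libraries all lay above those of female WT libraries, so the fit separates slope from genotype poorly there.

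Set against mitochondrial mRNA in the same library, the ribosomal RNAs did not overlap between the female groups. Ribosomal RNA counts were 1.63%, 1.25% and 1.45% of mitochondrial mRNA counts in female KO libraries and 3.42%, 3.21% and 2.47% in female WT libraries. The mean was 1.44 ± 0.19% in female KO and 3.03 ± 0.50% in female WT (SD, n = 3 each), and the ranges did not overlap. In males the share was 1.25%, 2.55% and 1.55% in KO and 2.64%, 2.30% and 5.29% in WT libraries, with male KO replicate 2 inside the WT range. By row, all female KO values lay below all female WT values for mt-Rnr1, mt-Rnr2, mt-Tp, mt-Cytb, mt-Nd3 and mt-Atp8 and above them for mt-Ty, beside 13.6% of all genes apart on this scale. In males, all KO values lay below all WT values for mt-Rnr1, mt-Nd1 and mt-Nd3 and above them for mt-Atp6, beside 23.4% of all genes. The nearest male mt-Rnr1 values were almost level, at 0.919% in KO replicate 2 and 0.935% in WT replicate 2. On the CPM scale the shares of all genes were 54.8% in females and 9.62% in males. The mitochondrial mRNA rows are part of their own divisor here and nuclear genes are not, so these shares are not a like measure for them. Scaling every gene to summed mitochondrial mRNA, edgeR called 0 of the 25 rows in females, beside 3.28% of all genes. At an unadjusted p under 0.05 there were 3 of the 25, beside 3169 of all 14003 genes. On that scale mt-Rnr2 was at -1.16 ± 0.52 in females, -0.97 ± 0.52 in males and -1.07 ± 0.37 over both sexes (edgeR adjusted p = 0.165, 0.70 and 0.0796). The female groups also stood apart in length slope, and the highest ribosomal RNA ratio fell in the replicate with the lowest slope in female KO, male KO and male WT (0.09, -0.17 and -0.16). In female WT it fell in the replicate with the highest slope, -0.15. The part of the slope in this ratio was not tested apart from the fit above.

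**Figure D4:**
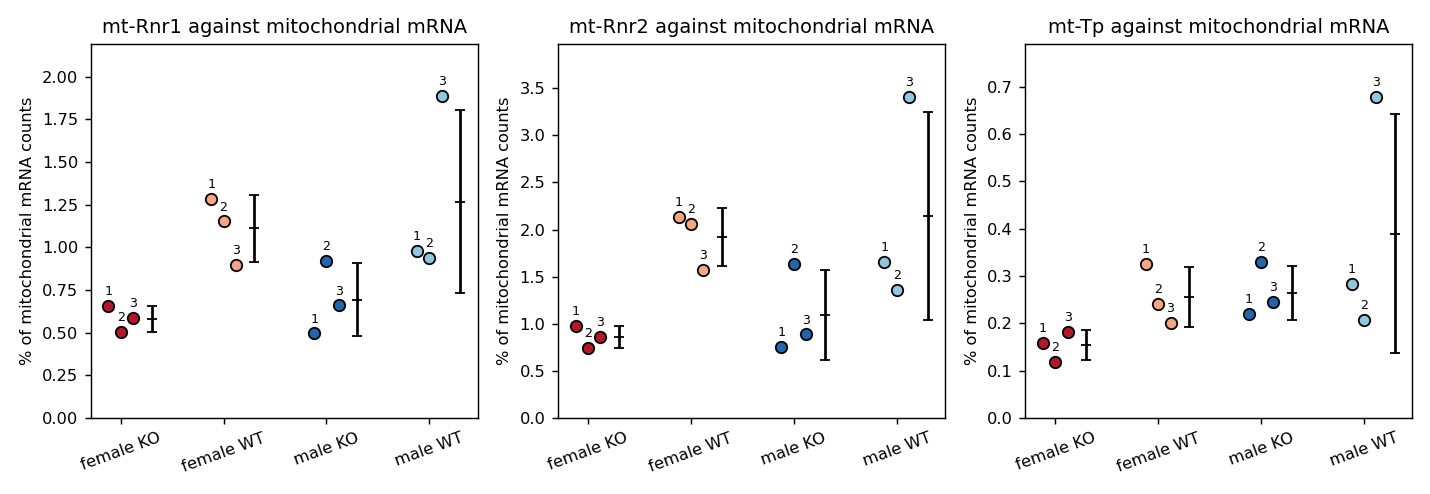
Counts of mt-Rnr1, mt-Rnr2 and mt-Tp as a percent of the counts of the 13 mitochondrial mRNA rows in each library (points, numbered by replicate), with the mean and SD of each group as bars. In all 3 panels the female KO points lie below the female WT points, and the male groups overlap for mt-Rnr2 and mt-Tp but not for mt-Rnr1, where KO is lower. The nearest male mt-Rnr1 points, KO replicate 2 and WT replicate 2, are almost level (0.919% and 0.935%).

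In males, none of the 25 rows was called by edgeR or DESeq2, beside 0.0571% of all genes with edgeR and 0.253% with DESeq2. In edgeR 1 row had an unadjusted p under 0.05, beside 678 of all 14003 genes. The fold change was above 0 for 21 of the 25 rows, with a median of 0.49, against -0.003 over all genes. In 8 rows (mt-Co1, mt-Co2, mt-Atp6, mt-Nd4, mt-Nd5, mt-Nd6, mt-Cytb and mt-Te) every KO library stood above every WT library, beside 9.62% of all genes apart in either direction. These rows come from the same libraries, so they are not 8 separate observations. mt-Co1 had 16581, 22793 and 18605 CPM in male KO and 16514, 13150 and 10615 CPM in male WT libraries. The nearest KO and WT values were almost level, and the fold change was 0.53 ± 0.37 (edgeR adjusted p = 1).

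mt-Nd4l and mt-Atp6 had the highest male fold changes. mt-Nd4l, a small complex I subunit, had 18.2, 9.62 and 41.4 CPM in male KO and 10.9, 7.43 and 1.49 CPM in male WT libraries. KO replicate 2 lay within the WT range, KO replicate 3 was the highest of the 6 and WT replicate 3 the lowest. The fold change was 1.80 ± 0.66 (edgeR adjusted p = 0.863), and 1.40 ± 0.55 with the copy Gm10222 added in. mt-Atp6, the proton channel subunit of ATP synthase, had 96.5, 92.7 and 119 CPM in male KO and 67.9, 53.5 and 33.3 CPM in male WT libraries. These groups were apart, with a fold change of 1.00 ± 0.47 (edgeR adjusted p = 1). The ribosomal RNAs had fold changes of -0.40 ± 0.43 (mt-Rnr2) and -0.32 ± 0.38 (mt-Rnr1), against the direction of most mRNAs.

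**Figure D5:**
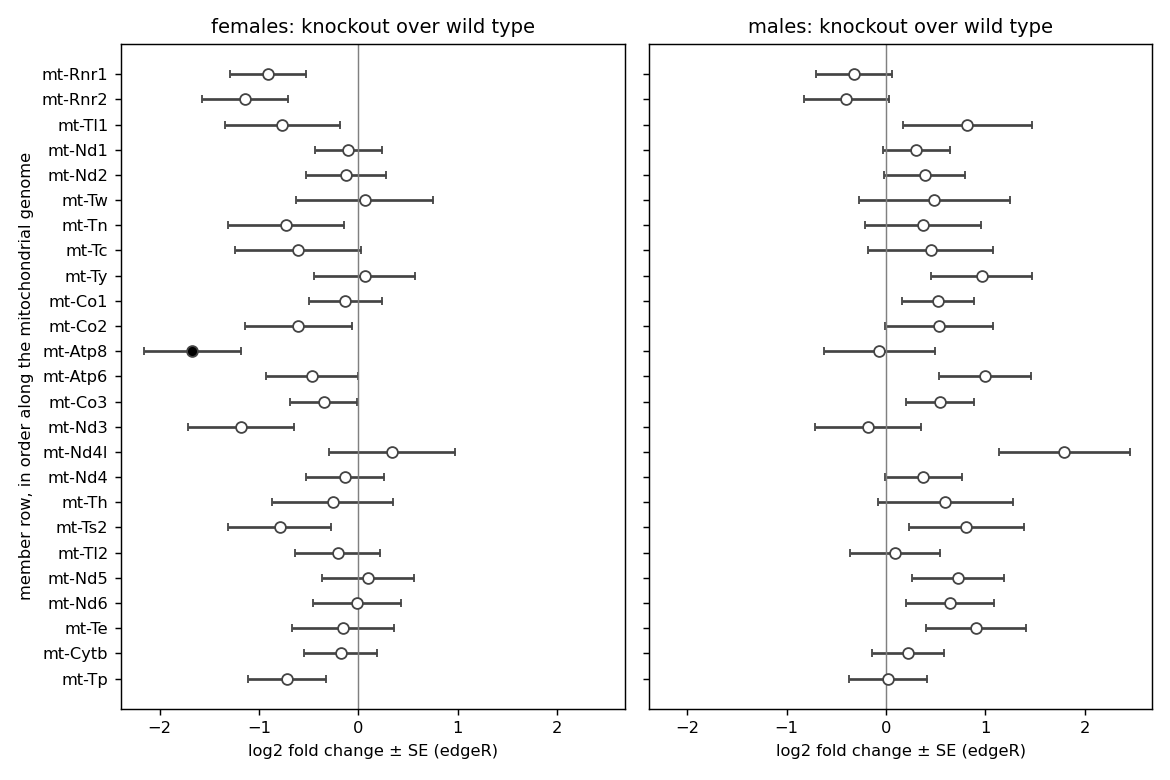
Log2 fold change of KO over WT with its SE from edgeR, in females (left) and males (right), for the 25 mitochondrial rows tested, in order along the genome. The filled point, mt-Atp8 in females at -1.67, is the one call, and male values lie above 0 for 21 rows.

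Averaged over both sexes, KO against WT, edgeR called none of the 25 rows, beside 15.1% of all genes. At an unadjusted p under 0.05 there were 4 rows, beside 5591 of all 14003 genes. DESeq2 called mt-Rnr2 (DESeq2 adjusted p = 0.0485), beside 28.3% of all genes. mt-Rnr2 was at -0.77 ± 0.30 (edgeR adjusted p = 0.0828) and mt-Nd4l at 1.07 ± 0.46 (edgeR adjusted p = 0.101). The KO effect in males minus that in females was above 0 for all 25 rows, with a median of 0.85. None of these differences was called by edgeR or DESeq2, beside 0% of all genes with edgeR. In edgeR 2 rows, mt-Atp6 and mt-Atp8, had an unadjusted p under 0.05, beside 3145 of all 14003 genes. DESeq2 gave no adjusted p for 16 of the 25 rows there, and called 17.5% of the 1244 genes to which it gave one. In these filtered fits the KO effect was not shown to differ between the sexes for any row, while 3 rows were called with no filter on low counts. Without female WT replicate 3, the edgeR difference was above 0 for 15 of the 25 rows, with a median of 0.11.

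Male against female mice were compared within each genotype. In KO, edgeR and DESeq2 called none of the 25 rows, beside 5.4% of all genes with edgeR and 9.97% with DESeq2. In edgeR 1 row had an unadjusted p under 0.05, beside 3152 of all 14003 genes. mt-Te was nearest, with 8.95, 10.6 and 12.7 CPM in male KO and 5.95, 4.53 and 3.33 CPM in female KO (1.22 ± 0.51, edgeR adjusted p = 0.18). It was the one row of 25 whose KO sexes did not overlap, beside 28.1% of all genes. In WT, edgeR called none, beside 4.49% of all genes, and DESeq2 called mt-Co3, mt-Atp6, mt-Ts2 and mt-Atp8, beside 8.76%. In edgeR 7 rows had an unadjusted p under 0.05, beside 3076 of all 14003 genes. mt-Atp8 had 0.421, 0.391 and 0.434 CPM in male WT against 0.897, 1.02 and 2.44 CPM in female WT (-1.78 ± 0.50, edgeR adjusted p = 0.0678). It was 1 of 3 rows, with mt-Tl2 and mt-Ts2, whose male WT values were all below the female ones, beside 26.9% of all genes apart. The median over the 25 rows was -0.67 in WT, and 0.05 without female WT replicate 3.

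With no filter on low counts, 34 mitochondrial rows could be fitted and more were called. In females 5 were called (mt-Rnr2, mt-Rnr1, mt-Tp, mt-Nd3 and mt-Atp8, all lower in KO), beside 20.5% of all genes. In males mt-Nd4l and mt-Atp6 were called as higher in KO, beside 0.395% of all genes. The mean of both sexes gave 4 calls (mt-Rnr2, mt-Rnr1, mt-Nd4l and mt-Nd3) beside 15.2%, and the difference of the KO effects gave 3 (mt-Co2, mt-Atp6 and mt-Nd4l) beside 5.67%. Male against female gave 2 in KO (mt-Tp and mt-Te) beside 6.62% and 7 in WT (mt-Co2, mt-Co3, mt-Atp6, mt-Nd4l, mt-Tl1, mt-Tl2 and mt-Ts2) beside 6.64%. The fold changes of these rows were close to those of the filtered fit, and the cause of the added calls was not tested.

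Nuclear subunits of the same complexes were measured in the same libraries. In female KO against female WT, 30 of 36 complex I, 8 of 9 complex III, 11 of 11 complex IV and 14 of 17 complex V nuclear subunits were lower and none was higher, beside 36.5% of all genes called and 18.8% called lower. Their median fold changes were -1.15, -1.37, -1.40 and -1.33. The mitochondrially encoded subunits of those complexes had 0 of 7, 0 of 1, 0 of 3 and 1 of 2 rows called, with medians of -0.10, -0.18, -0.35 and -1.07. Cox5a, a nuclear complex IV subunit, averaged 109 ± 13.3 CPM in female KO and 206 ± 11.0 CPM in female WT (SD, n = 3 each), a fold change of -0.91 ± 0.20 (edgeR adjusted p = 0.014). Atp5pb, of complex V, averaged 294 ± 38.9 CPM in female KO and 739 ± 81.6 CPM in female WT (-1.33 ± 0.28, edgeR adjusted p = 0.0139). The difference between the nuclear and mitochondrial subunits was not tested.

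Few genes of any kind were called in females without certain libraries or with the length slope in the model. Without female KO replicate 2, the library with muscle markers, or without female WT replicate 2, none of the nuclear subunits was called, beside 0.028% and 0.0347% of all genes. Their medians were then -1.25 to -1.02 and -1.37 to -1.16. With the length slope in the model none was called either, beside 0.0786% of all genes, and the medians were -0.19 to -0.04. The slopes of female KO and female WT libraries did not overlap, so that fit separates slope from genotype poorly. The subunits have a median gene length of 1214 to 2181 bases by complex, against 4059 over all genes tested. In males none of the 73 was called by edgeR or DESeq2, beside 0.0571% and 0.253% of all genes. In edgeR 0 of them had an unadjusted p under 0.05 in males.

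Some nuclear genes that maintain and express the mitochondrial genome were called in female KO against female WT, in both directions. Of 11 genes of mitochondrial DNA maintenance 2 rose and 2 fell, so 36.4% were called, beside 36.5% of all genes. Top1mt, the mitochondrial topoisomerase, and Polg, the catalytic subunit of the DNA polymerase, rose (0.84 ± 0.20 and 0.72 ± 0.23). Tfam, which packages the DNA and starts transcription, and Ssbp1, the single-strand binding protein, fell (-0.67 ± 0.21 and -0.98 ± 0.32). Tfam averaged 42.9 ± 3.1 CPM in female KO and 68.1 ± 11.7 CPM in female WT (SD, n = 3 each).

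Of 11 transcription genes 1 rose and 5 fell, so 54.5% were called, beside 36.5% of all genes. Tefm, the elongation factor, was among those that fell. It averaged 8.15 ± 1.42 CPM in female KO and 22.9 ± 3.9 CPM in female WT (-1.49 ± 0.29, edgeR adjusted p = 0.0139). Mterf3 and Mrpl12 also fell (-0.83 ± 0.19 and -1.10 ± 0.31). Of 28 genes of RNA processing, tailing and decay 2 rose and 10 fell, so 42.9% were called, beside 36.5% of all genes. Those that fell include Trmt10c and Hsd17b10, subunits of the RNase P that cuts at transfer RNA ends (-1.19 ± 0.23 and -1.08 ± 0.26). Rexo2, an exonuclease of short RNAs, and Fastkd2, which binds mt-Rnr2, fell as well (-1.03 ± 0.21 and -1.04 ± 0.25).

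Of 8 regulators of mitochondrial biogenesis, the coactivators Ppargc1b and Ppargc1a rose (2.71 ± 0.53 and 0.69 ± 0.24) and their partner Esrra fell (-0.69 ± 0.18). Ppargc1b averaged 6.74 ± 1.27 CPM in female KO and 1.04 ± 0.33 CPM in female WT (SD, n = 3 each). None of the 4 lists had a call in males with edgeR or DESeq2 (0 at an unadjusted p under 0.05 in edgeR), beside 0.0571% and 0.253% of all genes. In females none had a call with the length slope in the model or without female KO replicate 2 or female WT replicate 2. Those fits called 0.0786%, 0.028% and 0.0347% of all genes. The shares of the 4 lists called in the main female fit, 36.4%, 54.5%, 42.9% and 37.5%, stand beside the 36.5% of all genes. Markers of other cell types moved in the same comparison, in which 2479 of all 14003 genes were called higher and 2637 lower. Of 6 Kupffer cell and macrophage markers 4 were higher in female KO (median 0.88), with a summed level of 177 to 194 CPM in female KO and 94.3 to 144 CPM in female WT. Of the 3 lymphocyte and neutrophil markers tested, of 5 listed, 2 were higher, with a summed level over the 5 of 9.21 to 28.4 CPM in female KO and 5.56 to 7.82 CPM in female WT. Of 7 hepatocyte markers 1 was higher (summed level 126600 to 136800 CPM in female KO, 92260 to 124400 CPM in female WT). Of 5 sinusoidal endothelium markers 1 was higher (129.7 to 180.5 CPM, against 102.9 to 125.6 CPM). Of 5 stellate cell and of 4 cholangiocyte markers 1 was higher and 1 lower each. Of 5 erythroid markers 0 were called, and the 1 pancreas marker tested was lower. None of these markers was at 0 in either group, and their part in the female results was not tested. Marker calls were not counted in the fits with the length slope or with libraries left out.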

How the data were processed

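Per the labels' protocols, RNA from liver lysates was purified on RNeasy columns with DNase treatment and selected with poly-T beads, and random hexamers primed the cDNA. The authors deposited raw counts per gene, with mm39 positions and gene length. HISAT2 2.0.5, DESeq2 and mm39 appear in the submitters' processing notes. The counting program, its strand setting and its handling of reads that match several places are not given in these sources. Columns were assigned by the library number shared with the labels.

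edgeR 4.0.16 in R 4.3.3 was run with filterByExpr (14003 genes), TMM, 1 mean per group over 12 libraries, and the quasi-likelihood test with Benjamini-Hochberg adjustment over all genes in each of 6 contrasts. SEs were back-calculated from the F statistic. Tested on simulated data for the female contrast, the fit recovered the simulated fold sizes but called only a minority of 2-fold changes. CPM values use TMM-scaled library sizes, except per kb. The biological coefficient of variation was 25.9%. Replicate pairs differed by more than counting error (chi-square over its degrees of freedom, 15.6 to 138). DESeq2 1.42.0 and other settings were alternatives. Transcripts were compared with blastn 2.17.0. All mRNA and ribosomal RNA rows, and transfer RNA rows that passed the filter, could be named; other genes are those of smallest adjusted p in each list. The members and lists were chosen with earlier results of these data known.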

Additional observations from a re-analysis of the deposited data

Results flagged for a closer look

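Signal outside the liver measurement appeared in female KO replicate 2, which had 903 counts of Acta1 and 134 counts of Ckm, markers of skeletal muscle, while the other 11 libraries had 0 of both. Of the other muscle markers listed, it had 7 counts of Myl2, 2 of Myh6 and 0 of Actc1. The mitochondrial share of that library was 3.95%, between the other female KO values of 6.34% and 3.50%. In TMM-scaled CPM it had the lowest mt-Rnr1 and mt-Rnr2 levels of all 12 libraries (169 and 251). Those of male KO replicate 1 were next (176 and 269). As a share of all counts, the 2 ribosomal RNA rows were lower in male KO replicate 1 (0.0460%) than in female KO replicate 2 (0.0485%). Leaving out female KO replicate 2 ended the mt-Atp8 call in females and took the number of genes called there to 4, against 5116 with it. Leaving out female WT replicate 2, which had 0 counts of Acta1 and Ckm, also ended that call and took the number to 5. The part of muscle RNA in these values was not tested.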

How the results depend on the processing

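Direction held for the called row, mt-Atp8 in females, under all alternatives run, at -1.94 to -1.09 with adjusted p between 0.00798 and 0.547. The number of rows called in females was 1 as reported, 5 with no filter on low counts, 3 with DESeq2, and 0 with the length slope or scaled to mitochondrial mRNA, and it ranged from 0 to 4 when each library was left out in turn. It was 4 without female KO replicate 1 (mt-Rnr1, mt-Rnr2, mt-Nd3 and mt-Atp8), beside 29.7% of all genes. It was 2 (mt-Rnr2 and mt-Atp8) without female WT replicate 1, male KO replicate 2 or male WT replicate 2 or 3. Those fits called 27.5%, 41.5%, 37.4% and 37.5% of all genes. With no filter the counts were 2 in males, 4 for the mean of both sexes, 3 for the difference of effects, 2 for male against female KO and 7 for male against female WT. DESeq2 gave 1 for the mean of both sexes and 4 for male against female WT. Leaving out each library gave 0 to 3 for the mean of both sexes. There were 3 without male KO replicate 2 and 1 without male WT replicate 2, beside 38.7% and 31.2% of all genes. For male against female WT, leaving out each library gave 0 to 1. There was 1 without female WT replicate 1 or male KO replicate 2, beside 3.1% and 7.78% of all genes. The other contrasts stayed at 0. The cause of these changes was not tested. The male KO share of counts was 4.95% without the 10 most abundant nuclear genes, against 4.09% of all counts. Of 2984 values for single rows under alternatives, 2936 kept their side of the threshold and direction where called, 42 passed it newly and 6 lost it. In 221 of them the sign differed with no call in either fit. Adding nuclear copies to their genes, chosen after seeing the data, changed no call, and neither did RLE size factors. Refitting the gene lists with the length slope and with libraries left out was also chosen after seeing the data.

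Replicate numbers did not pair the samples. Correlations of same-numbered deviations ran from -0.61 to 0.28, and the own number was the best match in 6 of 36 comparisons. With a replicate block, mt-Atp8 remained the 1 row called in females (-1.60, edgeR adjusted p = 0.0394) and the other contrasts stayed at 0. All genes called in females then numbered 3365, against 5116, and 23 for the mean of both sexes, against 2111. Depth limits the transfer RNA rows and mt-Atp8, which had at most 38 counts in a library.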
